A study of Caenorhabditis elegans with 4 samples.

Results

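The COH-1 peaks of chromosome IV of Caenorhabditis elegans comprised 453 of the 2964 peaks in the deposited list of replicate 1 and 382 of the 2302 peaks in that of replicate 2. They were taken by position alone, as every listed peak on IV, and the lists were kept apart. The choice of this chromosome, and of the tests on it, was made with earlier results of these data known. The peaks came from chromatin immunoprecipitation followed by sequencing (ChIP-seq) of hermaphrodites grown at 20 °C, per the labels, that carry the allele b245 of fem-2, a gene needed for male development and spermatogenesis. All 4 libraries of the study, 2 of ChIP DNA and 2 of input DNA, are labelled with this genotype, so there is no wild-type group. The list of replicate 2 was deposited under a name with the tag csr1, and that of replicate 1 with BC299. Neither tag is explained, the labelled strain could not be checked from the lists, and every mean over them treats them as replicates on the word of the labels. The stage is given as young adults with a germline, while the growth protocol describes gravid adults, and whole worms were used, so soma and germline were not told apart. The antibody is a rabbit polyclonal against COH-1. No values of the input libraries were used, so the peaks have no control counted alongside them. The lists give positions in WormBase build WS220 and a score from the peak caller MACS, but no read counts, so the depth behind a peak is unknown.

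Cohesin is a ring of SMC proteins closed by a kleisin subunit. It holds sister chromatids together and extrudes chromatin loops, and COH-1 is 1 of the kleisins that worms can place in the ring. The autosomes of the worm have gene-rich centres and arms richer in repeats and silent chromatin. Chromosome IV is known in addition for the genes of the piRNAs, small RNAs that the Argonaute PRG-1 uses to recognise and silence foreign and transposon sequences in the germline. Most piRNA genes of the worm are short units, each with its own promoter, packed in a pair of broad blocks of IV. In the RefSeq gene table of assembly WBcel235, 14714 of 15363 piRNA genes (95.8%) were assigned to IV. The blocks were taken from 4500001 to 7000000, named the left block here, and from 13500001 to 17200000, the right block. Single piRNA genes were not placed on the peaks, because that table belongs to another build than the lists.

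Replicate 1 had 25.9 peaks per Mb on IV and replicate 2 had 21.9, a mean of 23.9 ± 2.87 (SD, n = 2). The length of IV was taken as 17.5 Mb, from base 1 to the end of the last peak. On the other 4 autosomes together the density was 26.5 peaks per Mb in replicate 1 and 22.4 in replicate 2. The density of IV relative to them was 0.98 in replicate 1 (95% interval 0.88 to 1.09; exact binomial test, two-sided, p = 0.71) and 0.98 in replicate 2 (0.87 to 1.10; p = 0.71). No difference in the number of peaks was detected within these intervals. Covered length was 64.5 kb per Mb in replicate 1 and 51.8 kb per Mb in replicate 2, the lowest of the autosomes but for V in both lists. The labels do not say whether the replicates were grown apart, and a spread over them may be technical only.

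At the median, peaks on IV were of ordinary width and strength for these lists. Widths were almost equal, with a median of 1560 bp for replicate 1 and 1564 bp for replicate 2, and peaks ranged from 861 bp to 19.4 kb and from 681 bp to 15.8 kb. The authors' score, whose scale the files do not state, had a median of 119.93 on IV in replicate 1 and 271.24 in replicate 2. The median peak of IV stood at percentile 50.5 of the whole replicate 1 list and 51.2 of the replicate 2 list. Among the strongest 10% of each list were 43 peaks of IV in replicate 1 (9.49% of those on IV) and 40 in replicate 2 (10.5%). Broad peaks of 5 kb or more numbered 46 in replicate 1 (10.2%, against 11.1% of the whole list) and 31 in replicate 2 (8.12%, against 10.9%). These shares were the lowest of the autosomes in both lists. The next lowest were 12.0% on I in replicate 1 and 11.0% on V in replicate 2, while X had 7.94% and 8.10%. The difference was not tested. The widest lay from 4013564 to 4032960 in replicate 1, with a score of 553.26, and from 10813517 to 10829316 in replicate 2, with a score of 3100. Each of them overlapped a peak of the other list.

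Peaks of IV from replicate 1 were found in replicate 2 more often than those of the other chromosomes pooled. A peak counted as shared when it overlapped the other list by at least 1 bp, which held for 48.2% of all replicate 1 peaks and 70.2% of all replicate 2 peaks. On IV, 256 of 453 replicate 1 peaks were shared, or 56.5% (exact 95% interval 51.8% to 61.1%), which was the highest share of the 6 chromosomes. III followed with 53.6% (48.8% to 58.4%) and V with 51.7% (46.8% to 56.5%), whose intervals overlapped that of IV, and X was lowest with 38.3% (34.9% to 41.8%). On the others together the share was 46.7% (44.7% to 48.7%), or 9.80 percentage points lower than on IV (p = 0.00013, two-sided Fisher's exact test). Against the other 4 autosomes, which leaves out the low share of X, the difference was 5.93 points (Fisher's exact test, p = 0.026). In replicate 2, 272 of 382 peaks of IV were shared, or 71.2% (66.4% to 75.7%), and 70.1% on the other chromosomes, with no detected difference (Fisher's exact test, p = 0.67). These tests treat neighbouring peaks as independent.

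The overlapping peaks of IV formed 209 shared intervals, of which 139 joined exactly 1 peak of each list. The shared intervals were 982 bp to 21.2 kb wide, with a median of 3148 bp. Of the 1414 kb of IV covered by either list, 618 kb (43.7%) was covered by both, beside 44.1% on V and 42.9% on III. In the 139 simple pairs the midpoints lay a median of 280 bp apart, and 93 pairs (66.9%) were within 500 bp. The replicate 2 midpoint stood 18 bp to the right of its partner at the median. In 62 of the pairs (44.6%) 1 peak lay wholly inside the other, and in 82 (59.0%) the replicate 1 peak was the wider. No pair had identical borders. The ranks of the scores across the 209 intervals had a Spearman's rho of 0.49, given as a description of sites that share their libraries.

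Peaks of higher score were shared more often on IV, as they were genome-wide. In replicate 1 the share climbed from 32.4% of peaks in the lowest 25% of the whole list to 68.1% between percentiles 50 and 75 and to 97.7% (42 of 43) in the top 10%. Over all chromosomes these classes stood at 27.1%, 52.8% and 93.9%. In replicate 2 the shares on IV were 50.5%, 76.0% and 97.5% (39 of 40), beside 50.7%, 78.0% and 96.5% over all chromosomes. Between percentiles 75 and 90 of replicate 2, IV had 98.3% (59 of 60) and all chromosomes had 90.4%, a difference that was not tested. Peaks without a partner were weaker and narrower at the median, scoring 83.68 in replicate 1 and 132.35 in replicate 2, while shared peaks of IV had 172.38 and 375.22. In replicate 1 they had a median width of 1253 bp, while shared peaks of IV had 1979 bp. In replicate 2 these medians were 1214 bp and 1867 bp. Shared and unpartnered peaks thus differed in both width and score, and their separate parts in the sharing were not tested.

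**Figure D1:**
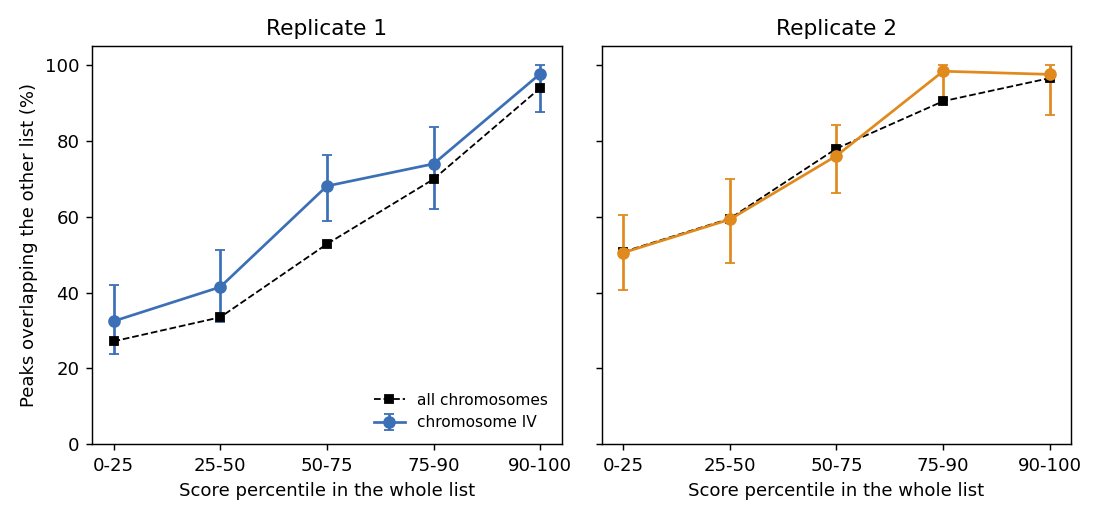
Share of peaks that overlap the other list (vertical axis, percent) by score percentile in the whole list (horizontal axis), for IV (circles, with exact 95% intervals that cover counting error only) and for all chromosomes (squares). In replicate 1 the points of IV lie above those of all chromosomes in each class, with 68.1% against 52.8% between percentiles 50 and 75. In replicate 2 the lowest classes nearly coincide, while between percentiles 75 and 90 IV has 98.3% against 90.4%.

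The 197 unpartnered peaks of replicate 1 lay a median of 9.42 kb from the nearest replicate 2 peak, and 76 of them were within 5 kb. The 110 unpartnered peaks of replicate 2 lay a median of 2.86 kb from a replicate 1 peak, and 69 were within 5 kb. The strongest in replicate 1 was the peak from 12812471 to 12818274, with a score of 579.37 and 12.4 kb from its nearest neighbour in the other list. It was followed by the peak from 5075786 to 5079518 in the left block (score 542.17, 54.0 kb away) and by that from 8522887 to 8540957 (score 527.35, 0.937 kb away), which was 18.1 kb wide. In replicate 2 the peak from 2761795 to 2766926 had a score of 2258 without a partner and lay 6.09 kb from the nearest. The next were the peak from 831946 to 834262 (score 863.11, 2.69 kb away) and that from 4508229 to 4510510 (score 720.7, 23.0 kb away).

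The centre of IV, the middle 33.3% of its length from 5.82 to 11.6 Mb, carried more peaks than either whole arm in both lists. It held 218 peaks of replicate 1 and 169 of replicate 2, or 48.1% and 44.2%. The centre held 37.4 peaks per Mb in replicate 1 and 29.0 in replicate 2. The left arm had 22.7 and 19.4 peaks per Mb, and the right arm 17.7 and 17.17. The right arm contains the right block, and its part before that block had 36.2 and 32.9 peaks per Mb. That part had 18.9 shared intervals per Mb, beside 16.0 in the centre. Centre and arms were not compared with the right block left out. Of the shared intervals 93 lay in the centre, or 44.5% (exact 95% interval 37.6% to 51.5%; exact binomial test, two-sided, Benjamini-Hochberg adjusted over the 6 positional tests, p = 0.0027). With only the stronger 50% of each list the share was 41.4% (adjusted exact binomial p = 0.13), and under a reciprocal overlap of 50% it was 40.5% (adjusted p = 0.11), neither of which passed the threshold of 0.05. By score, the median peak of the centre stood at percentile 47.9 of the replicate 1 list and 43.9 of the replicate 2 list. That of the right arm stood at 57.9 and 52.3, and that of the left arm at 50.2 and 59.4.

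The right piRNA-rich block was the sparsest large zone of IV in both lists. It held 30 peaks of replicate 1 and 32 of replicate 2 over 3.7 Mb. That is 8.11 and 8.65 peaks per Mb, while IV outside both blocks had 31.2 and 27.2. The density ratio was 0.26 in replicate 1 (95% interval 0.17 to 0.38; adjusted exact binomial p = 1.42e-16) and 0.32 in replicate 2 (0.21 to 0.46; adjusted exact binomial p = 7.48e-12), with a mean of 0.29 ± 0.041 (SD, n = 2). Covered length showed the same order, with 22.9 and 22.1 kb per Mb in the block and 77.3 and 63.1 kb per Mb outside. The 18 shared intervals of the block, 4.86 per Mb against 14.8 outside, gave a ratio of 0.33 (0.19 to 0.54; adjusted exact binomial p = 2.06e-06). After merging of intervals within 10 kb, which reduces the dependence between neighbours, 9 sites remained in the block and the ratio was 0.33 (0.15 to 0.66; adjusted exact binomial p = 0.0012).

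**Figure D2:**
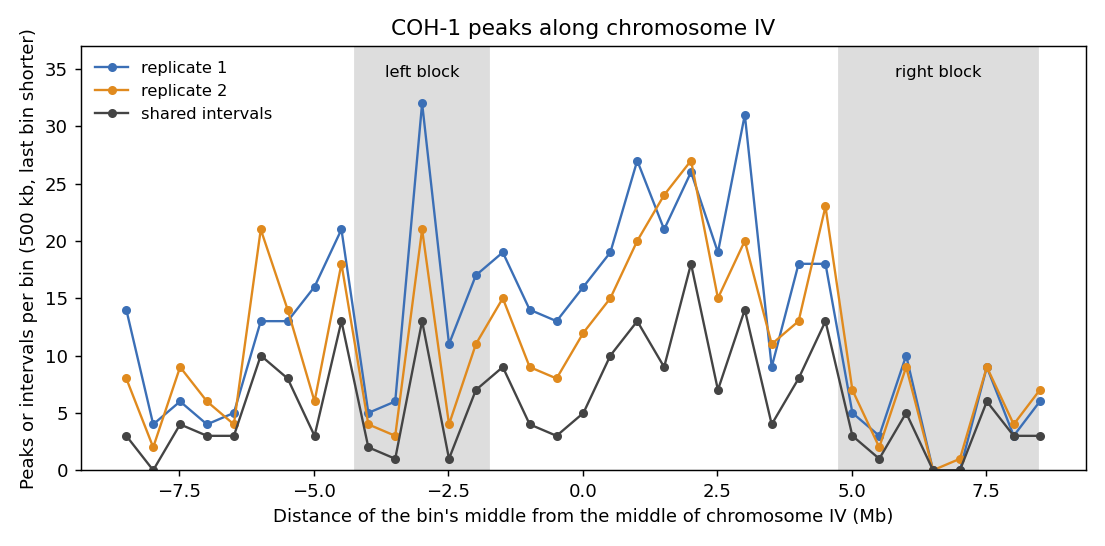
Number of COH-1 peaks of each list, and of shared intervals, in 35 successive bins of IV (vertical axis), by distance of the bin's middle from the middle of the chromosome in Mb (horizontal axis); bins are 500 kb except the last, of 471 kb, and grey marks the piRNA-rich blocks. Both lists fall to 0 or 1 peak in adjacent bins of the right block, and the left block holds a single bin with 32 and 21 peaks between sparse ones.

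The right block lies wholly in an arm, so it was also set against the left arm outside the left block. That arm had 21.3 peaks per Mb in replicate 1 and 19.6 in replicate 2. The ratio of the block to the arm was 0.38 in replicate 1 (0.24 to 0.58; adjusted exact binomial p = 1.88e-06) and 0.44 in replicate 2 (0.29 to 0.67; adjusted exact binomial p = 9.00e-05). The shared intervals gave 0.47 (0.25 to 0.82; adjusted exact binomial p = 0.011). This comparison did not pass after merging within 10 kb, with a ratio of 0.50 (0.20 to 1.12; adjusted exact binomial p = 0.21), nor under the reciprocal overlap of 50%, with 0.68 (adjusted exact binomial p = 0.22). The 1.85 Mb of the right arm that precede the block had 36.2 peaks per Mb in replicate 1 and 32.9 in replicate 2, close to the 39.4 and 32.5 of the centre outside the left block. At the border the last bin before the block, from 13000001 to 13500000, held 18 and 23 peaks, and the first bin inside it, from 13500001 to 14000000, held 5 and 7. Such a fall was not particular to this border. Inside the left block the bin from 5500001 to 6000000 held 32 and 21 peaks, and the next held 11 and 4. The last 271 kb beyond the right block held 6 and 7 peaks, or 22.2 and 25.9 per Mb.

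**Figure D3:**
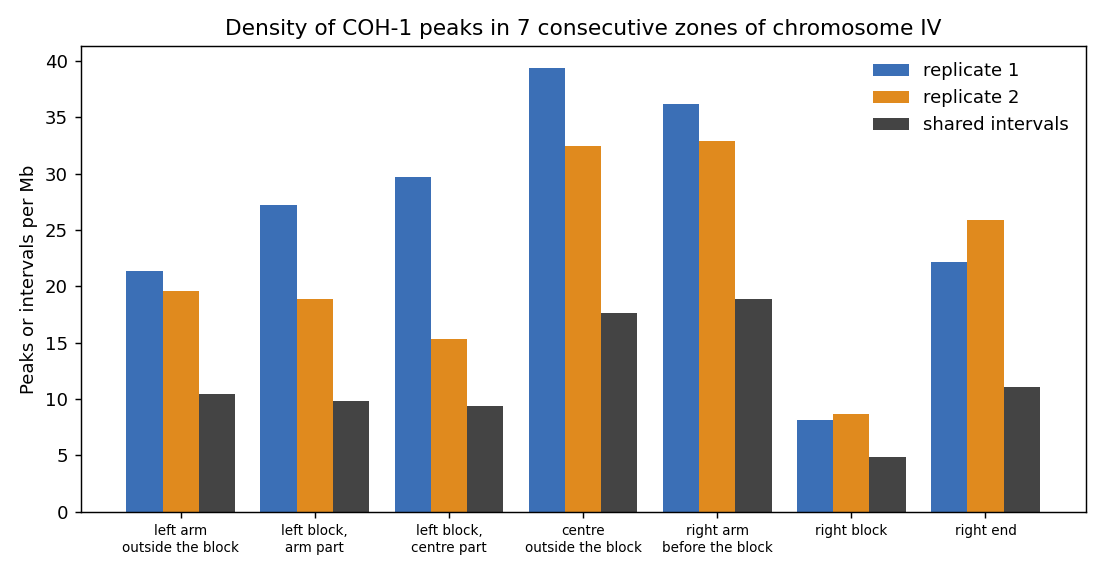
Density of peaks of each list and of shared intervals (vertical axis, number per Mb) in 7 consecutive zones of IV (horizontal axis), cut at the block borders and at the borders of the centre. The right block stands lowest with 8.11, 8.65 and 4.86 per Mb, and the zone just before it reaches 36.2, 32.9 and 18.9.

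Few though they were, the peaks of the right block included strong ones. Its median peak stood at percentile 57.7 of the replicate 1 list and 64.4 of the replicate 2 list, and 73.3% (exact 95% interval 54.1% to 87.7%) and 78.1% (60.03% to 90.7%) of its peaks were shared. On IV outside both blocks 58.0% and 70.4% were shared, and in the whole lists 48.2% and 70.2%. The values outside both blocks lie within the intervals of the right block, and the difference was not tested. The 9 merged sites covered 98.0 kb in all. The best ranked shared interval of the whole chromosome was among them, from 14029059 to 14038966, with a score of 3100 in both lists and rank 6 of all shared intervals of the genome. Second in the block came the interval from 16487450 to 16497370, which scored 1629 and 2158. Its neighbour from 16497433 to 16502724 scored 675.33 and 3100, and both belonged to a site of 4 intervals from 16481557 to 16502724. Another site of 4 intervals, from 14592649 to 14625908, spanned 33.3 kb and contained the last 2 of the 5 best, from 14615210 to 14625908 (1040 and 2399) and from 14604416 to 14614902 (378.9 and 3100). The other 6 sites were the interval from 13880452 to 13894299, with scores of 439.61 and 2236, and 5 sites with replicate 1 scores of 53.13 to 149.15.

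The 3 longest stretches of IV without a peak in either list began in the right block. They ran from 14884417 to 15696508 (812 kb), from 16664288 to 17263394 (599 kb, of which the last part lies beyond the block) and from 15697495 to 16164807 (467 kb). The first and the last of these were separated only by a replicate 2 peak of 986 bp with a score of 85.9. From 14884417 to 16164807, over 1280 kb, replicate 1 had 0 peaks and replicate 2 had 1. Between the blocks the longest such stretch was 411 kb, from 12209425 to 12620583, and inside the left block it was 291 kb, from 4784575 to 5075785. How well reads align in these stretches was not measured here.

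The left block differed less from its surroundings, and of the lists taken alone only replicate 2 passed for its density ratio. The intervals of the lists overlapped, and the lists were not tested against each other. Replicate 1 had 71 peaks over the 2.5 Mb of the block and replicate 2 had 43, a mean density of 22.8 ± 7.92 peaks per Mb (SD, n = 2). The ratio to IV outside both blocks was 0.91 in replicate 1 (0.69 to 1.18; adjusted exact binomial p = 0.49) and 0.63 in replicate 2 (0.45 to 0.87; adjusted exact binomial p = 0.0042). For the 24 shared intervals, 9.60 per Mb against 14.8 outside, it was 0.65 (0.40 to 0.998). This did not pass after adjustment (exact binomial p = 0.048, adjusted p = 0.062). With blocks narrowed by 250 kb the ratio for shared intervals was 0.59 and passed (adjusted exact binomial p = 0.045). The share of peaks with a partner was 42.3% (30.6% to 54.6%) in replicate 1 and 72.1% (56.3% to 84.7%) in replicate 2. Outside both blocks it was 58.0% and 70.4%, and in the whole lists 48.2% and 70.2%. In replicate 1 the value outside both blocks lies above the interval of the left block, and in replicate 2 it lies within. These shares were not tested against each other.

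The left block straddles the border between arm and centre, and each piece was compared with the rest of its own zone. In the part within the left arm the density was 27.2 peaks per Mb in replicate 1 and 18.9 in replicate 2, and the ratio to the rest of that arm was 1.27 (0.84 to 1.89; adjusted exact binomial p = 0.26) and 0.97 (0.59 to 1.52; adjusted exact binomial p = 1). In the part within the centre the density was 29.8 and 15.3 peaks per Mb, with ratios to the rest of the centre of 0.76 (0.51 to 1.09; adjusted exact binomial p = 0.23) and 0.47 (0.27 to 0.77; adjusted exact binomial p = 0.0022). The central part also held weak peaks in replicate 2, with a median percentile of 27.8 and 0 of 18 in the strongest 10% of the list. In replicate 1 the median there was 51.6, with 2 of 35 peaks in the strongest 10%. Of those 35 replicate 1 peaks 11 (31.4%, exact 95% interval 16.9% to 49.3%) were shared. That interval contains the 48.2% of the whole list but lies below the 51.9% of the centre outside the block. In replicate 2, 12 of the 18 peaks (66.7%, 41.0% to 86.7%) were shared, beside 70.2% of the whole list and 72.2% of the centre outside the block. These differences in sharing were not tested.

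A single bin held much of what the left block contained. From 5500001 to 6000000 lay 32 peaks of replicate 1, 21 of replicate 2 and 13 shared intervals, which were 45.1%, 48.8% and 54.2% of the block. It was the fullest bin of IV in replicate 1. The other 2.0 Mb of the block had 19.5 and 11.0 peaks per Mb and 5.50 shared intervals per Mb, 0.62, 0.40 and 0.37 times the density outside both blocks. The bin was picked after its values were seen, and these ratios carry no test. The 5 best ranked shared intervals of the left block all lay in it. They were those from 5752502 to 5759444 (scores 1291 and 3100), from 5599579 to 5612301 (956.76 and 3100), from 5584055 to 5591993 (889.47 and 2227), from 5578478 to 5583856 (504.67 and 2618) and from 5652035 to 5668909 (969.22 and 1063). The site from 5578478 to 5612301 joined 5 shared intervals over 33.8 kb.

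To ask whether the low densities went with the place on the chromosome, windows at the same relative position and of the same relative length were laid on I, II, III and V. In the window placed like the right block, the density of shared intervals relative to the chromosome outside both windows was 0.40 on I (95% interval 0.23 to 0.67), 0.86 on II (0.56 to 1.28), 1.18 on III (0.81 to 1.71) and 0.25 on V (0.13 to 0.45), beside 0.33 on IV. In replicate 1 it was 0.32, 0.88, 0.85 and 0.22 on I, II, III and V, and in replicate 2 it was 0.51, 0.85, 1.03 and 0.33. IV thus stood between I and V in replicate 1, just below V in replicate 2, and below II and III in both. Against the 4 autosomes pooled, with a ratio of 0.63 for shared intervals, IV was lower (Fisher's exact test, two-sided, adjusted over 8 tests, p = 0.029), and so it was in replicate 1 (adjusted Fisher's exact p = 0.00075) and in replicate 2 (adjusted Fisher's exact p = 0.00075). With intervals merged within 10 kb the ratios were 0.33 on IV and 0.59 on the others, and the difference did not pass (adjusted Fisher's exact p = 0.14). The pooled value joins II and III with I and V, whose intervals overlapped that of IV in each list and in the shared intervals. IV was not tested against I or V alone, and a low density at this position was not shown to be particular to IV.

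In the window placed like the left block, IV had the lowest ratio of the autosomes in the shared intervals and in both lists. For shared intervals it was 0.65 on IV, 0.77 on V, 0.98 on I, 1.07 on II and 1.63 on III. The pooled ratio of the others was 1.08, and the difference passed in replicate 2 (0.63 against 1.09; adjusted Fisher's exact p = 0.0042) but not for the shared intervals (adjusted Fisher's exact p = 0.062) or in replicate 1 (0.91 against 1.18; adjusted Fisher's exact p = 0.11). Merging within 10 kb gave 0.65 on IV and 1.10 on the others (adjusted Fisher's exact p = 0.14). These window tests were chosen after the values on IV were seen. On V and I the ratio was 0.96 and 1.01 in replicate 1, and 0.83 and 0.89 in replicate 2. The intervals of I and V overlapped that of IV in each list and in the shared intervals. IV was not tested against them alone, and the lowest ratio at this position was not shown to be particular to IV.

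**Figure D4:**
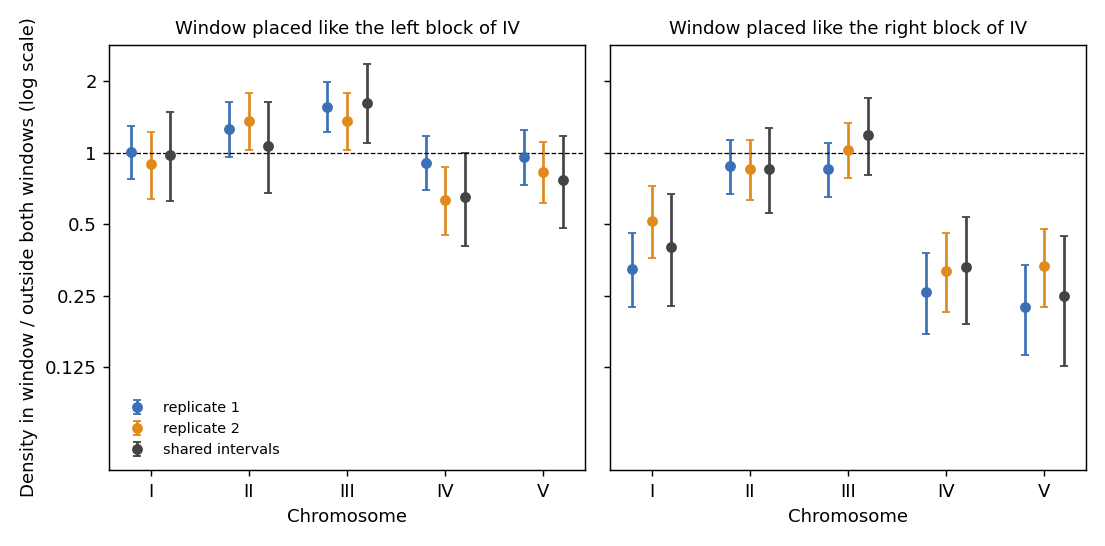
Density inside a window divided by the density outside both windows (vertical axis, log scale) on each autosome (horizontal axis), for windows placed like the left and the right block of IV; bars are exact 95% intervals that cover counting error only, and the dashed line is equal density. In the right window I, IV and V lie at 0.22 to 0.51, and II and III at 0.85 to 1.18.

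The fullest bins by shared intervals lay right of the middle. The bin from 10500001 to 11000000 held 26 peaks of replicate 1, 27 of replicate 2 and 18 shared intervals, the most on IV. It was followed by the bin from 11500001 to 12000000 with 31 and 20 peaks and 14 shared intervals. A further 4 bins held 13 shared intervals each. Those from 9500001 to 10000000 and from 13000001 to 13500000 lay right of the middle, that from 4000001 to 4500000 lay in the left arm, and that from 5500001 to 6000000 is the full bin of the left block. Over the 35 bins the median was 13 peaks in replicate 1 and 9 in replicate 2, and the counts of the lists had a Spearman's rho of 0.88, a description of bins from the same libraries. The emptiest bin of the left arm, from 500001 to 1000000, had 4 and 2 peaks and 0 shared intervals. Peaks stood close together everywhere. The nearest neighbour in the same list lay within 10 kb for 85.9% of peaks of IV in replicate 1 and 85.6% in replicate 2, and for 76.7% and 87.5% of those in the right block. Merging shared intervals within 10 kb left 104 sites, 46 of them single. The site with the most intervals held 6, from 12830553 to 12849877.

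The 10 best ranked shared intervals of IV were spread over its zones, with 5 in the centre outside the left block, 2 in the left arm outside it, 2 in the left block and 1 in the right block. After the interval from 14029059 to 14038966 came that from 8786254 to 8801326, 15.1 kb wide, with scores of 2375 and 3100, and that from 10247714 to 10257083, with 2020 and 3100. The fourth, from 4390090 to 4401667, joined 3 peaks of replicate 1 and 1 of replicate 2 and scored 1438 and 3100. The others outside the blocks were those from 8427218 to 8436812 (1249 and 3100), from 10967383 to 10973663 (1186 and 3100), from 287869 to 301524 (1001 and 3100) and from 11485157 to 11495726 (1657 and 2302). Since many replicate 2 scores were tied at 3100, replicate 1 mostly set this order. The widest shared interval of IV, from 4460893 to 4482128, spanned 21.2 kb and scored 399.01 and 3100. Among the best 50 of the 209, 6 lay in the right block and 7 in the arm part of the left block, while its centre part had 0 of its 11 intervals among them.

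**Figure D5:**
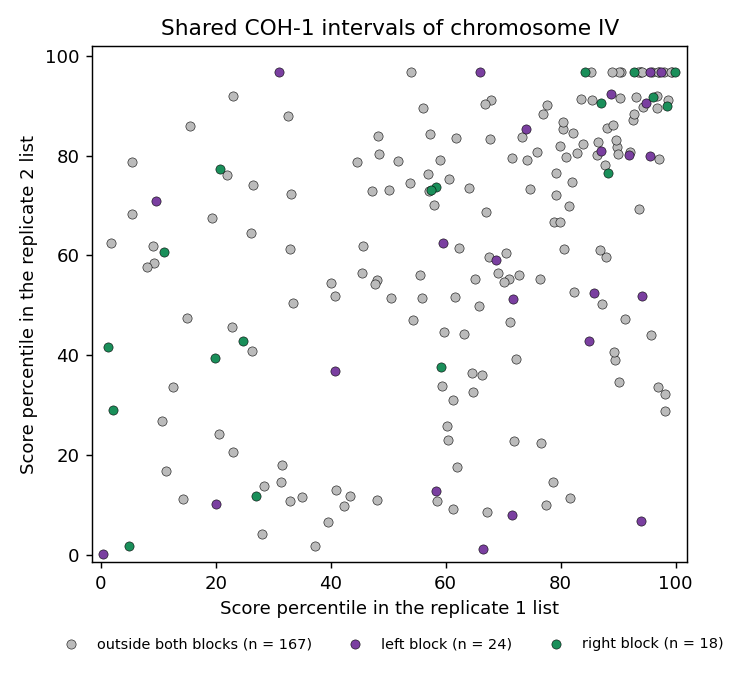
Percentile of the best score in the replicate 1 list (horizontal axis) and in the replicate 2 list (vertical axis) for the 209 shared intervals of IV, each point 1 interval, coloured by zone. Points of the right block spread from the bottom left to the top right, where the interval from 14029059 to 14038966 lies, and ties at a score of 3100 form the row at the top.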

How the data were processed

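The data were the COH-1 peak lists of the 2 ChIP libraries, while the 2 libraries of input DNA were left out as not analysed here. Alignment was to ce10 by BWA, according to the submitters' processing notes. MACS called the peaks on build WS220, separately for each library, per the file headers and source column. Tool versions, peak threshold and control: not given in the sources used here. Each score was used as the authors deposited it, only within a list or by rank, as its scale is not stated. Start and end were taken as the authors deposited them, 1-based.

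Values were computed with Python 3.11.15, numpy 2.4.6, scipy 1.17.1, pandas 2.3.3 and matplotlib 3.10.9. Peaks linked by overlaps of at least 1 bp between the lists were joined into shared intervals, and each peak or interval was placed by its midpoint. Ratios of density have exact binomial (Clopper-Pearson) 95% intervals, conditional on the lengths, which cover counting error only. All p-values are two-sided and read at 0.05. Those called adjusted follow Benjamini-Hochberg over the 6 positional tests of each set, or the 8 window tests. Those of the overlap shares and of the density of IV against the other autosomes are not adjusted. They treat peaks as independent, although peaks cluster. The computations were tested on simulated lists whose peaks were placed independently, so the intervals were not checked for peaks that cluster. Of the density ratios only that of the right block was checked there. Alternatives were each list alone, the stronger 50%, reciprocal overlap of 50%, midpoints within 500 bp, merging within 10 kb, blocks narrowed by 250 kb, a centre of 50%, and other lengths or chromosomes for comparison. Added after seeing the data were the left block without its densest bin and the windows on other autosomes.

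Regions named are the 10 best shared intervals of IV by mean rank, the 5 best of each block, the 3 strongest unpartnered peaks of each list, the widest peaks, fullest bins, fullest site and longest peak-free stretches; further sites and bins were chosen after their values were seen. The chromosome, the blocks and the tests were chosen with earlier results of these data known.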

Additional observations from a re-analysis of the deposited data

How the results depend on the processing

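No paired analysis was possible because only ChIP libraries gave values, while their replicate numbers pair them with input DNA. For 9 results, 55 other settings were run, of which 41 changed neither the direction nor the call at 0.05. The ratio of the right block to IV outside both blocks, 0.33, ranged from 0.26 to 0.51 and passed under all 7 of its alternatives (adjusted exact binomial p from 1.42e-16 to 0.025). Its ratio to the left arm, 0.47, no longer passed after merging within 10 kb (0.50) or with a reciprocal overlap of 50% (0.68), and the lists alone gave 0.38 and 0.44. The central share, 44.5%, no longer passed with the stronger 50% (41.4%) or the reciprocal overlap (40.5%), and the lists alone gave 44.2% to 48.1%. The ratio of the left block, 0.65, ranged from 0.63 to 0.91 over the lists alone and passed in replicate 2 (0.63) and with blocks narrowed by 250 kb (0.59). Without its densest 500 kb bin it was 0.37, but leaving out the fullest bin of the block alone can only lower the ratio. The ratio of its centre part, 0.53, ranged from 0.47 to 0.76 over the lists alone and passed in replicate 2 (0.47), with narrowed blocks (0.36) and with a centre of 50% (0.53). The ratio of its arm part, 0.94, turned to 1.27 in replicate 1 alone and 1.21 with the stronger 50%, was 0.97 in replicate 2 alone, and could not be computed with a centre of 50%, which contains the whole block. The density of IV against the other autosomes, 1.08 for shared intervals (exact binomial p = 0.34), turned to 0.979 and 0.978 in the lists alone and 0.97 after merging, never past the threshold. The cause of these changes was not tested. The higher share of overlapping replicate 1 peaks on IV, 9.80 points, ranged from 5.37 to 10.6 and passed under all 4 alternatives (Fisher's exact p from 0.0020 to 0.026), while that of replicate 2 passed under none. Without read counts, a region without a peak cannot be told from one with too few reads to call.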
